A study of Mus musculus with 3 samples.

Results

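Myl4, a myosin light chain gene, is described here beside 4 genes of adult skeletal muscle, Mylpf, Ckm, Tpm2 and Eno3, in bone marrow RNA of castrated mice given testosterone or placebo. The members are all spots with a ratio on all 3 arrays whose annotation gives exactly 1 gene, that gene being one of these 5. They number 6 spots, of 6039 tested, because Tpm2 has 2 spots and each of the other genes has 1. The genes were chosen by their measured testosterone to placebo ratios on these same arrays, so the ratios below are a description and no test of the members is drawn from them.

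Both groups were C57BL/6 mice castrated at 7 weeks of age, and marrow was collected at 17 weeks. The testosterone group carried a slow-release pellet of 12.5 mg of testosterone, made to last 60 days, for 4 weeks, and the other group carried a placebo pellet. Each of 3 two-colour arrays (T1, T2 and T3) paired 1 testosterone mouse with its matched placebo mouse, so the replicate is the mouse pair (n = 3). The testosterone sample carried Cy5 dye except on T2, where it carried Cy3 and the placebo sample Cy5. All mice of both groups were castrated, and no intact mouse is among the arrays. The tissue is labelled bone marrow, while the extraction protocol speaks of pulverized bone, and in the body muscle attaches to the outer surface of bone.

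Muscle contracts when myosin heads pull on actin filaments. Each myosin heavy chain carries an essential and a regulatory light chain. Myl4 encodes an essential light chain known from embryonic muscle and the adult atrium, and Mylpf encodes the regulatory light chain of fast skeletal fibres. Tpm2 encodes a tropomyosin that lies along the actin filament, Ckm the creatine kinase that rebuilds ATP in muscle, and Eno3 the muscle enolase of glycolysis. Cd79b, which carries signals from the antigen receptor of B lymphocytes, serves as a marker of those cells, which marrow produces.

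The start regions of the 5 genes are shown because they hold a feature that the choice of members did not use. Each sequence runs from 250 bases before to 50 bases after the transcript start that RefSeq lists for GRCm38.p6, 5′ to 3′, and all 5 genes matched by symbol. Capitals mark CAGCTG, an E box of the kind that myogenic factors such as MyoD bind, searched on both strands, which read alike.
Myl4, chr11:104550413-104550712, plus strand: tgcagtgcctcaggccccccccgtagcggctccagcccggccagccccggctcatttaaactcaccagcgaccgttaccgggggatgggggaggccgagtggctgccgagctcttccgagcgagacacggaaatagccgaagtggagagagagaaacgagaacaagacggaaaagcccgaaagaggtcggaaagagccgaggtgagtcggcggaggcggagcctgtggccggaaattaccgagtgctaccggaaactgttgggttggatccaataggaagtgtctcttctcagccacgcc
Mylpf, chr7:127211358-127211657, plus strand: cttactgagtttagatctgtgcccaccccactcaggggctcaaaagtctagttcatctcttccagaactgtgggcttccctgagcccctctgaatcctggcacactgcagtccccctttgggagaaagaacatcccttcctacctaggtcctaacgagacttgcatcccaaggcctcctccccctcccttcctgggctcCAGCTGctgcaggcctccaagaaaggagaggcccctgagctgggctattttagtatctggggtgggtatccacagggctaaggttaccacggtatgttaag
Ckm, chr7:19410844-19411143, plus strand: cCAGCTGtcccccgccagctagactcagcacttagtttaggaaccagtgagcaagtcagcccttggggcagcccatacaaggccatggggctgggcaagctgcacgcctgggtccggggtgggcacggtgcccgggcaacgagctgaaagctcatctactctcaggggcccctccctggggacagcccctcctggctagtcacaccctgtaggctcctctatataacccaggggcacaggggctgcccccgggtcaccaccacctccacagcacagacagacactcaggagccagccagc
Tpm2, chr4:43523505-43523804, minus strand: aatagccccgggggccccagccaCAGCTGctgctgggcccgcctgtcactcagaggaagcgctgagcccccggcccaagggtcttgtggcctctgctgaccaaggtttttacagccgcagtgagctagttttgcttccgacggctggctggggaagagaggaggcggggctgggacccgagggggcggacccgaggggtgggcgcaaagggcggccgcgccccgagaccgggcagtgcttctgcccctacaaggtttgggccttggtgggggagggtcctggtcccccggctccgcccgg
Eno3, chr11:70656926-70657225, plus strand: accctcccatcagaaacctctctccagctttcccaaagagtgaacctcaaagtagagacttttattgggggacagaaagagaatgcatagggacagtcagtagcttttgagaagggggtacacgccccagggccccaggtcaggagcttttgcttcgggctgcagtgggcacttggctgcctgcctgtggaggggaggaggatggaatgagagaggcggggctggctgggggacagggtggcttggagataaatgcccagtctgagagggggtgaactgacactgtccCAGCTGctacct
Each of the 4 skeletal muscle genes held 1 CAGCTG in its window, at position -51 for Mylpf, -249 for Ckm, -227 for Tpm2 and 38 for Eno3, counted from the transcript start. The Myl4 window held 0. Across all 32851 start regions of the table, 16.3% held the motif. The core of sites of the B-cell factor EBF, CCCNNGGG, which reads alike on both strands, was absent from the windows of Myl4 and Mylpf and occurred 4 times in that of Ckm, 5 times in that of Tpm2 and once in that of Eno3, against 13.7% of all windows with any match. The table holds several starts for some genes, and the listed start of Myl4 lies 4646 bases inside the outer end of the gene, that of Mylpf 2760 and that of Eno3 4051. A match describes letters in the window and is not a measured binding site.

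The deposited numbers are taken as log2 of testosterone over placebo, so a negative value is lower with testosterone. Base 2 was inferred from how far the numbers spread, and the direction is likely rather than settled. It follows the design text, which calls testosterone the experimental channel. In bulk marrow, fewer cells of a type and less RNA per cell cannot be told apart. The array carries 11552 spots, of which T1 gave a ratio at 9007, T2 at 6771 and T3 at 6982. Across the 6039 tested spots the standard deviation was 0.316 for T1, 0.491 for T2 and 0.324 for T3. Pearson's r between arrays was 0.422 for T1 and T2, 0.488 for T1 and T3 and 0.734 for T2 and T3, as a description across spots.

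Myl4 was clearly below 0 in every mouse pair. The pair on T1 gave a log2 ratio of -1.85, that on T2 gave -1.28 and that on T3 gave -1.06, which is 3.60-fold, 2.43-fold and 2.08-fold lower with testosterone than with placebo. The mean was -1.40 ± 0.41 (SD, n = 3), or 2.63-fold lower, and ranked 21st from the lowest of all tested spots. The lowest ratio of Myl4 was on T1, where 15 spots lay at or below it. On T2 34 spots and on T3 28 spots lay at or below it, so the gene stood within the lowest 0.563% of spots on each array.

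The 4 skeletal muscle genes had another profile. Their 5 spots lay near 0 on T1 and below 0 on T2 and T3. Mylpf had -0.19 on T1, -1.22 on T2 and -0.65 on T3, a mean of -0.69 ± 0.52 (SD, n = 3). On T1 24.9% of all spots were at or below it, against 0.629% on T2 and 1.32% on T3.

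Ckm was the member furthest from an even profile. It had -0.003 on T1, -1.57 on T2 and -0.59 on T3. For Ckm, 51.5% of all spots were at or below it on T1, against 0.381% on T2 and 1.79% on T3. Its mean was -0.72 ± 0.79 (SD, n = 3), so the spread between pairs exceeded the mean.

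Tpm2 was measured by a pair of spots that ran alike. The first spot had -0.06 on T1, -1.005 on T2 and -0.46 on T3 (mean -0.51 ± 0.47, SD, n = 3). The second had -0.04, -0.63 and -0.35 on the same arrays (mean -0.34 ± 0.30, SD, n = 3). Each Tpm2 spot was lowest on T2 and closest to 0 on T1, and the second was the smaller of the pair on every array. Eno3 followed the same order, at -0.03 for T1, -0.78 for T2 and -0.24 for T3 (mean -0.35 ± 0.39, SD, n = 3).

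**Figure D1:**
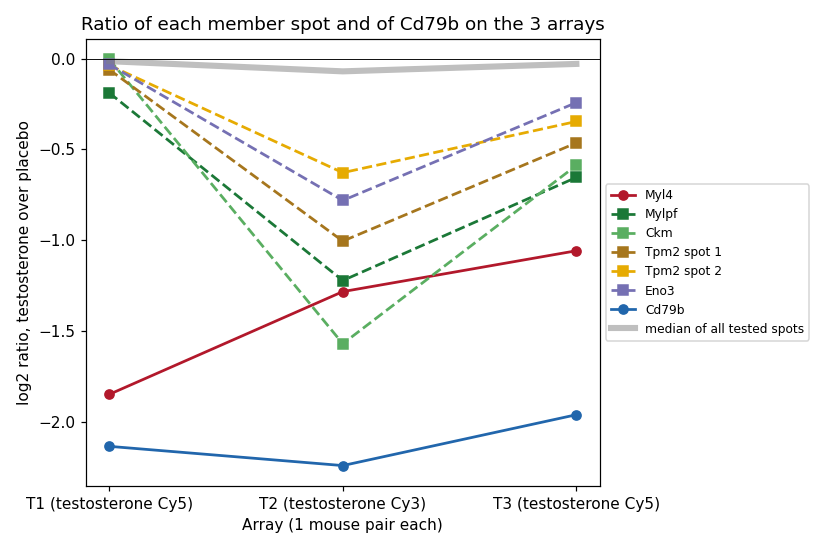
Log2 ratio of testosterone over placebo (vertical axis) on each array (horizontal axis, 1 mouse pair each) for the 6 member spots, Cd79b and the median of all 6039 tested spots. The 5 skeletal muscle spots lie between -0.19 and -0.003 on T1 and between -1.57 and -0.63 on T2, while Myl4 is lowest on T1 at -1.85.

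On T1 the muscle spots ranged from -0.19 to -0.003 with a median of -0.04, against -0.014 for all tested spots. On T2 they ranged from -1.57 to -0.63 (median -1.005, against -0.07 for all tested spots), and on T3 from -0.65 to -0.24 (median -0.46, against -0.029). Myl4 lay below all 5 muscle spots on T1 and on T3, and inside their range on T2, where Ckm was lower. All 5 muscle spots were lower on T2 than on T3. T2 differs from the other arrays in its mice and in its dye orientation, which cannot be told apart for a single array.

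All 6 member spots were below 0 on all 3 arrays, as were 29.9% of all tested spots. By limma over the tested spots (Benjamini-Hochberg adjusted p under 0.05), Myl4 was the single member spot called, as lower, of 6. Of all spots 1.71% were called lower and 1.13% higher. Without T1 all 6 member spots were called lower, beside 6.84% of all spots. Without T2 and without T3 Myl4 alone was called lower, beside 1.04% and 0.629% of all spots. With a dye term all 6 were called lower, beside 8.68% of all spots, and after centring and scaling of the arrays Myl4 and Mylpf were, beside 3.66%. The dye-term fit gives T2, where the muscle spots were lowest, the weight of T1 and T3 together. Because the members were chosen on these ratios, the counts describe them and lend them no support. The means of the muscle spots without T1 ran from -0.49 (the second Tpm2 spot) to -1.08 (Ckm), while without T2 they ran from -0.14 (Eno3) to -0.42 (Mylpf).

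On the values as deposited, the gap between T1 and the other pairs put the muscle spots and Myl4 on opposite sides. The T1 ratio minus the mean of T2 and T3 was 1.08 for Ckm, 0.75 for Mylpf, 0.67 and 0.45 for the Tpm2 spots and 0.48 for Eno3. For Myl4 it was -0.68, for Cd79b -0.03, and for the median spot 0.018. At or above the Ckm value lay 15 of 6039 spots, and at or below the Myl4 value lay 220. This contrast depends on the sign of T2: with that sign turned the gap was -0.49 for Ckm, -0.47 for Mylpf, -0.33 and -0.18 for the Tpm2 spots, -0.30 for Eno3 and -1.96 for Myl4, all on the same side, and 414 spots lay at or below Ckm and 14 at or below Myl4. As deposited, T2 ran with the other arrays across spots (Pearson's r of 0.422 with T1 and 0.734 with T3). With its sign turned it would run opposite to both.

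Cd79b was low and even across pairs, at -2.14 for T1, -2.24 for T2 and -1.96 for T3 (mean -2.11 ± 0.14, SD, n = 3). The likeness of 2 profiles was measured as the root mean square of their differences on the 3 arrays, in log2 units, where smaller is more alike. Myl4 differed from Cd79b by 0.778, from Mylpf by 0.988, from the Tpm2 spots by 1.10 and 1.19, from Ckm by 1.11 and from Eno3 by 1.19. Cd79b was therefore nearer to Myl4 than any of the 5 muscle spots. Of all tested spots, 62 others were nearer to Myl4 than Cd79b was, and 159 others were nearer than Mylpf, the nearest muscle spot. The cosine of the profiles, which leaves size out and is 1 for the same shape, was 0.976 between Myl4 and Cd79b and between 0.634 (Ckm) and 0.75 (Mylpf) for the muscle spots. By the cosine, 209 other spots were nearer to Myl4 than Cd79b was, and 1657 others were nearer than Mylpf. With 3 arrays these figures are a description and carry no p.

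The 8 genes nearest to Myl4 were Ablim1, Bcl7a, Chchd10, Serinc5, Foxo1, Rhoh, Blk and St6gal1, at differences of 0.084 to 0.328 over the 3 arrays. None of the 8 is in the muscle lists, and Blk is in the list of B-lineage markers. Absence from these lists does not show that muscle lacks a gene. Ablim1, an actin-binding LIM protein, was nearest, at -1.73 for T1, -1.26 for T2 and -1.13 for T3. Foxo1, a forkhead transcription factor, had -1.40, -1.33 and -1.02 on the same arrays, and Blk, a B-cell kinase of the Src family, had -1.64, -1.49 and -1.54. All 8 were called lower by limma, with adjusted p from 0.000224 (Blk) to 0.0108 (Chchd10), beside 1.71% of all spots. A gene that lies close to Myl4 in value shares its size of change by construction.

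The 8 genes nearest to Mylpf were Sec63, Tia1, Il16, Slc44a2, Adgre5, Fstl1, Akt1 and Tpm2, at 0.055 to 0.182. Tpm2 is the single gene of the muscle lists among them. Sec63, a protein translocation factor of the endoplasmic reticulum, had -0.18, -1.14 and -0.60, and Il16, a cytokine of lymphocytes, had -0.24, -1.25 and -0.87 on T1, T2 and T3. The 7 genes other than Tpm2 are in none of the muscle lists. Of the 8, 1 was called lower by limma, Slc44a2 (adjusted p = 0.0489), beside 1.71% of all spots. These genes likewise share the size of change of Mylpf by construction.

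**Figure D2:**
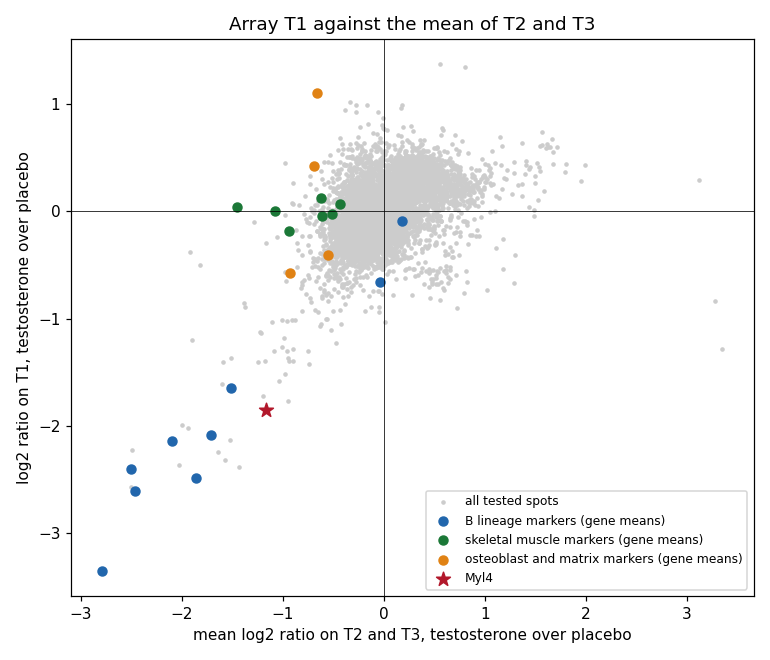
Log2 ratio of testosterone over placebo on T1 (vertical axis) against the mean of T2 and T3 (horizontal axis). Small grey points are the 6039 tested spots, large points are gene means of 3 marker lists, and the star is Myl4, at -1.85 on T1. The 7 skeletal muscle genes lie left of 0 at about the height of 0, while 7 of the 9 B-lineage genes lie far down on the left.

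Among 20 skeletal muscle markers, 14 genes with 18 spots were on the array, and 7 genes had a ratio on all 3 arrays. All 7 gene means were below 0, as were 62.3% of all gene means, and 0 of the 7 passed limma in either direction, against 3.32% of all 3493 genes called lower and 1.83% higher. Without T1 all 7 passed as lower, beside 9.65% of all genes, and with a dye term 5 did, beside 6.1%. Without T2, without T3 and with T2 turned 0 passed. Their median as deposited was -0.42, against -0.07 over all genes. The list includes 4 of the members, and the others were Car3, Des and Acta1. Car3, the muscle carbonic anhydrase that fat cells also express, had 0.03 on T1, -1.97 on T2 and -0.93 on T3 (mean -0.96 ± 1.004, SD, n = 3, adjusted p = 0.101 by limma). Des, the intermediate filament desmin, had 0.12, -0.87 and -0.38, and Acta1, the skeletal actin, had 0.07, -0.41 and -0.45 over 3 spots. Like the muscle members, and unlike Myl4, these 3 genes were highest on T1.

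Skeletal marker spots without a T1 ratio were not members, although they came from the same RNA. Their list was chosen with earlier results of these data known, so their values are a description. They lack the array on which the muscle members lay near 0. All 18 skeletal marker spots had a value on T2 and on T3, but 10 had one on T1, where 6506 of all 7984 single-gene spots did. The 8 others all lacked T1, whereas T1 was the missing array for 235 (19.6%) of the 1199 spots with exactly 2 values. Why a spot has no value is not given in the sources used here. All 8 were below 0 on both T2 and T3, against 41.7% of those 235 spots. Among the 53 spots of the wider muscle lists, the number with a ratio was 33 for T1, 36 for T2 and 39 for T3. T1 alone measured 6 of them, of Csrp3 (3 spots), Mybph, Slc25a4 and Myod1.

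The 8 skeletal marker spots without a T1 ratio ranged from -1.68 to -0.29 on T2 (median -1.17) and from -0.80 to -0.12 on T3 (median -0.33), and each was lower on T2 than on T3. The wider lists added 1 more spot with T2 and T3 alone, that of the calcium-binding protein gene Hrc, which lay closer to 0 at -0.14 on T2 and -0.16 on T3. Atp2a1, the calcium pump of fast fibres, had -1.68 on T2 and -0.80 on T3. The troponins Tnni2, Tnnc2 and Tnnt3, which couple calcium to the thin filament, had -1.47, -1.36 and -1.16 on T2 and -0.40, -0.69 and -0.36 on T3. Myl1, the essential light chain of fast fibres and the adult counterpart of Myl4 in limb muscle, had -1.18 on T2 and -0.25 on T3.

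The glycogen phosphorylase Pygm had -0.87 on T2 and -0.29 on T3, a second Des spot -0.43 and -0.12, and the oxygen carrier Mb -0.29 and -0.25. When genes with at least 2 arrays were admitted, Atp2a1 (adjusted p = 0.035) and Tnnc2 (adjusted p = 0.0391) passed limma as lower, 2 of 14 skeletal markers, beside 2.66% of 4101 genes. Each rests on T2 and T3 only. These 8 genes were picked out after their values were seen.

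**Figure D3:**
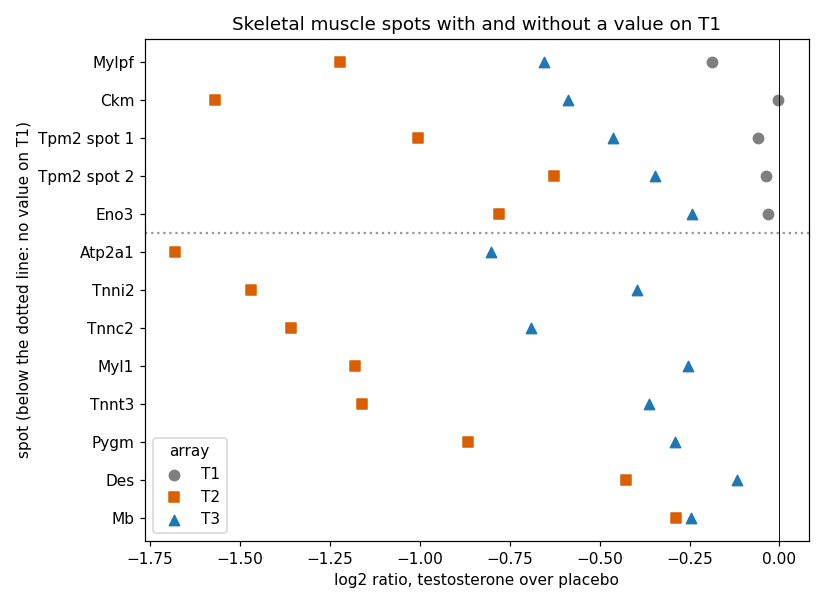
Log2 ratio of testosterone over placebo (horizontal axis) of skeletal muscle spots on T1 (circles), T2 (squares) and T3 (triangles). Above the dotted line are the 5 member spots of muscle genes, and below it the 8 marker spots with no T1 value, from Atp2a1 with -1.68 on T2 to Mb with -0.29.

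Wider muscle pathway lists held 97 genes, of which 18 had a ratio on all 3 arrays and 16 had a mean below 0 (median -0.28). Over all genes, 62.3% of means were below 0. Of the 18, 1 passed limma as lower and 1 as higher, beside 3.32% and 1.83% of all genes. Without T1, 10 were lower and 1 higher, beside 337 (9.65%) and 300 of all 3493 genes. With a dye term 6 were lower and 1 higher, beside 213 (6.1%) and 201 of all genes. Without T2 and without T3 0 passed either way, beside 35 and 32 of all genes called lower and 1 called higher each time. These counts for the lists, and the gap with T2 turned, were added after the data were seen. The higher gene was Xirp1, an actin-binding protein of striated muscle, at 0.27 for T1, 1.04 for T2 and 0.66 for T3 (1.58-fold, adjusted p = 0.0484). It no longer passed with T2 left out (adjusted p = 0.228), with T3 left out (0.27), with arrays centred on their medians (0.0546) or with genes on at least 2 arrays admitted (0.0504). The lower gene was Mef2c, a transcription factor of muscle that B cells also use, with -0.70, -0.49 and -0.34 (1.43-fold lower, adjusted p = 0.046). Its order across arrays was that of Myl4, lowest on T1, and it no longer passed with T2 left out (adjusted p = 0.216), with T3 left out (0.238), or with arrays centred (0.0624) or centred and scaled (0.0531).

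By role, the thick filament list gave 1 gene with complete values (Mylpf), calcium handling 0, the thin filament and Z disc 8, energy metabolism 7 and myogenic regulators 2. In the thin filament list 7 of 8 means were below 0, with Xirp1 the exception and Tpm1 at -0.34 ± 0.16 (adjusted p = 0.0957). In energy metabolism 6 of 7 were below 0 and 0 passed, with a median of -0.20. The regulators other than Mef2c gave Mef2a at -0.07 ± 0.008, and spots for Myog and Myf5, which drive muscle formation, had no value on any array.

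The nonmuscle relatives of the members gave no call. Of 11 such genes 7 had a mean below 0, a share near that of all genes (62.3%), and 0 passed limma. The median was -0.009, and by array it was 0.07 for T1, -0.30 for T2 and -0.10 for T3. This is the order of muscle and also of all genes (-0.037, -0.115 and -0.055). Their lowest mean was that of Tpm1, which is also in the thin filament list. Myl9 and Mylk are also in the list of smooth muscle markers, so the lists overlap. Myh10, a nonmuscle myosin heavy chain, had 0.31 ± 0.15 (adjusted p = 0.114, n = 3 with limma). Myl6, the essential light chain of nonmuscle myosin, had 0.07, 0.13 and -0.08 on T1, T2 and T3. The sequence of the Myl4 probe was not analysed here, so hybridization of related light chain transcripts to it was not tested.

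Markers of other muscle types were few. Of 10 cardiac markers, 3 genes were on the array and only Actc1, which skeletal muscle expresses during development, had complete values (mean -0.12 ± 0.40, adjusted p = 0.624 by limma). The 3 spots of the heart troponins Tnni3 and Tnnt2 had no value on any array. Of 4 smooth muscle markers 0 passed, with a median of 0.09 for T1 and of -0.29 for T2 and for T3, among them Myl9 (-0.20 ± 0.08) and Actg2 (-0.24 ± 0.26). With T1 left out, 2 of these 4 passed as lower, beside 9.65% of all genes.

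The cell types beside which the members can be read moved as follows. Of 9 B-lineage markers with complete values, 7 passed limma as lower and 0 as higher, beside 3.32% and 1.83% of all genes. The list had a median of -2.13 for T1, -2.24 for T2 and -1.65 for T3. Fcrla (-2.51 ± 0.22), Bach2 (-2.47 ± 0.28), Blk (-1.56 ± 0.08), Vpreb3 (-2.98 ± 0.66) and Pou2af1 (-2.07 ± 0.41) were among those called lower. The lowest T1 ratio was -3.35, at Vpreb3. Ms4a1 and Cd24a did not pass. Ms4a1 had -0.66, 0.05 and -0.14 on T1, T2 and T3 (adjusted p = 0.291 by limma), and Cd24a had -0.09, 0.10 and 0.25. The part of B-cell content in the ratio of Myl4 was not tested.

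The medians of the 4 bone matrix genes, 0.006 on T1, -1.08 on T2 and -0.22 on T3, ran in the same order as those of muscle. The medians of all genes had that order too, at -0.037, -0.115 and -0.055. Col1a1 and Col1a2, the chains of type I collagen, had 1.10 and 0.42 on T1 against -1.16 and -1.11 on T2. Col6a1, a chain of type VI collagen, was the single member of that list past limma's threshold (-0.81 ± 0.22, adjusted p = 0.0101), which it no longer was with T2 left out (0.0967) or T3 left out (0.162), and Sparc had -0.50 ± 0.50. As in the skeletal muscle list, all genes of this list (4 of 4) passed as lower without T1, beside 9.65% of all genes. With a dye term 2 did, beside 6.1%. The amount of bone and muscle tissue in each preparation was not measured, and its part in the muscle ratios was not tested.

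Erythroid and neutrophil markers, each with 4 genes and 0 past the threshold, had medians of 0.13 and 0.13 over the 3 arrays. By array the erythroid median was 0.12, 0.20 and 0.18, and the neutrophil median was 0.64, 0.15 and -0.11, highest on T1. Hbb-b1 (0.35 ± 0.23) and Fech (0.36 ± 0.26) were the erythroid genes of smallest p, and Itgam (0.33 ± 0.42) and Mmp8 (0.22 ± 0.33) the neutrophil ones. Erythroid spots had a value on all 3 arrays in 8 of 8 cases and neutrophil spots in 6 of 7, while the ratios themselves do not give the level of a cell type.

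**Figure D4:**
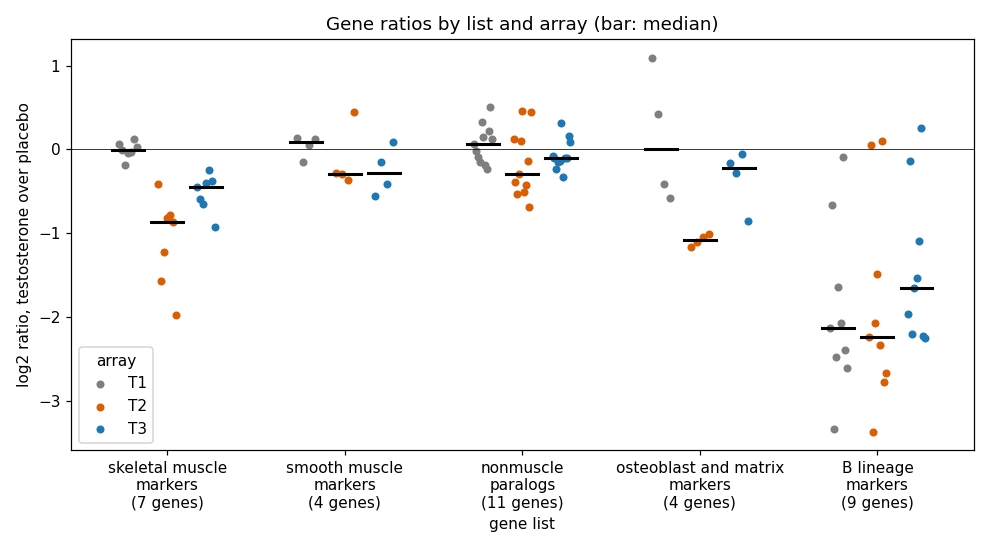
Log2 ratio of testosterone over placebo (vertical axis) of each gene with complete values, by list (horizontal axis) and array, with bars at the medians. Skeletal muscle and bone matrix medians are near 0 on T1 and lowest on T2 (-0.87 and -1.08), while the B-lineage medians are between -2.24 and -1.65 on all arrays.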

How the data were processed

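The deposited table holds signed log2 ratios, 1 per spot and array. The base, the direction and the normalization are not stated there and were inferred from the values and the series' design text. The sign of T2, the array of opposite dyes, was kept as deposited, and a turned sign was an alternative. The mean of every consecutive run of 361 spots lay within 0.0541 of 0 on each array, and the 6 member spots lay in 6 different runs. No further normalization was applied. Spots were named from the platform annotation where it gives 1 gene (8050 spots), and 7880 were updated through Entrez IDs to RefSeq GRCm38.p6. The 12 control or non-mouse spots with complete values were left out.

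The limma package (3.58.1, R 4.3.3) tested complete spots, and likewise gene means, against 0 by moderated linear models, two-sided, with Benjamini-Hochberg adjustment at 0.05. The procedure was tested on simulated data. The number of arrays limits precision: a spot's standard error was 0.118 at the median. The p-values rest on the spread between 3 mouse pairs, moderated by the spread over all spots. Without a dye term, that spread includes the opposite dye orientation of T2. With a dye term, the spread left is that between T1 and T3 alone, and T2 weighs as much as both. That term therefore cannot part the dye from the mice of T2. Named were the members, Cd79b, up to 6 genes that passed and the 2 of smallest p in each list, and the 8 genes nearest to Myl4 and to Mylpf. The B-lineage markers that did not pass were named as well. Members and lists were chosen with earlier results of these data known. Alternatives were each array left out, T2 turned, a dye term, centring, scaling, spots present on at least 2 arrays, a robust variance model, a 0.10 threshold, the mean over the spots of a gene and the cosine.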

Additional observations from a re-analysis of the deposited data

How the results depend on the processing

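The count of spots past the threshold by limma was 171 on the values as deposited, 1309 with a dye term, 57 after median centring, 816 after centring and scaling and 1165 at a threshold of 0.10, and 38 to 1095 when an array was left out. The share of higher spots among those called was 39.8% as deposited, 7.02% after median centring and 72.9% after centring and scaling. With the sign of T2 turned 0 spots passed by limma (20 had an unadjusted p under 0.05), and 387 spots, against 1806, were below 0 on all 3 arrays, 0 of them members. That orientation turned the means of the muscle spots above 0: Mylpf 0.127, Ckm 0.326, Tpm2 0.16 and 0.082, and Eno3 0.169. Myl4 (-0.54) and Cd79b (-0.62) stayed below 0 without passing. Over the genes of all lists, 10 passed as deposited, 17 with a dye term, 0 with T2 turned and 6 to 28 when an array was left out, the highest without T1. Of all 3493 genes, 116 were lower and 64 higher as deposited, 213 and 201 with a dye term, and 337 and 300 without T1. After median centring 1521 of the 6039 tested spots were below 0 on all 3 arrays, among them 5 of the 6 member spots. The member spot not among them was Ckm. In every other setting run the mean of each member spot stayed below 0. Cd79b stayed nearer to Myl4 than each of the 5 muscle spots by the cosine and after centring and scaling, while centring alone and the sign of T2 cannot change the root mean square difference. The cause of these shifts was not tested. Signal over background was not analysed here.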
